A study of Ovis aries and Capra hircus and Bos taurus with 26 samples.

Results

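H3K27ac shoulders are stretches of acetylated chromatin that lie close beside H3K4me3 without overlapping it. They were chosen by position alone, separately in cattle, sheep and goats and on autosomes. The H3K27ac intervals of all libraries of a species were merged, and a merged region was kept when at least 2 libraries overlapped it (a recurrent region). It was a shoulder when it overlapped no H3K4me3 interval of any animal of the species but had such an interval within 1 kb, measured from edge to edge. Of 103401 recurrent H3K27ac regions, 5932 (5.74%) were shoulders. They numbered 1584 of 30142 regions in cattle, 1894 of 33518 in sheep and 2454 of 39741 in goats. Among the recurrent regions that overlapped no H3K4me3, they made up 13.1%, 15.8% and 14.6%.

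H3K4me3, trimethylation of lysine 4 of histone H3, is laid down on the nucleosomes next to active or poised transcription start sites and is used to map promoters. H3K27ac, acetylation of lysine 27 of the same histone, lies on active promoters and active enhancers alike, so that H3K27ac without H3K4me3 is commonly read as an enhancer. Acetylated nucleosomes often extend further from a start site than trimethylated ones, and a rule that asks only for the absence of overlap also counts such acetylated margins as enhancers.

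The study compared regulatory elements between ruminants by chromatin immunoprecipitation and sequencing (ChIP-seq) of frozen liver from healthy adult animals, 3 Holstein cattle, 3 Texel sheep and 3 Yunnan black goats, with no treatment. There were 8 H3K27ac libraries (cattle B and C, sheep A to C, goats A to C) and 9 H3K4me3 libraries (animals A to C of each species). A letter names 1 liver within a species, so species and breed cannot be told apart and each library is 1 animal. Whole liver holds several cell types, and a peak does not say which of them carried the mark.

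The lists give 1 fold enrichment per summit, which is the number of fragments piled up at the summit over a local background, each with 1 added, and a p-value. Both together fix the pileup and the background, and a whole number of fragments was recovered within 0.005 of the −log10 p for 99.99% to 100% of the peaks of each library. The recovered backgrounds were whole multiples of a small step, 0.0222 to 0.0248 fragments. This is what reads counted over 10 kb give for fragment lengths of 222 to 248 bp, and it held for 100% of the backgrounds below 15 in every library, within 0.1 steps, other than those at the library's lowest value. The lowest background of a library, an estimate of its mean coverage, lay between 1.46 fragments (H3K4me3 of goat B) and 2.28 (H3K4me3 of goat C), so coverage was not equal between the lists, although the methods give 1 depth. Peak lists carry no gene names, so the labelled tissue was not checked against liver markers, and regions are given by sequence name and position.

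Shoulders were concentrated within 500 bp of H3K4me3. The gap between a shoulder and the nearest H3K4me3 edge had a median of 291 bp in cattle, 307 bp in sheep and 295 bp in goats, with middle 50% ranges of 181 to 462, 193 to 476.5 and 196 to 443 bp. Gaps of at most 500 bp made up 78.8%, 77.7% and 79.6% of the shoulders. Since the rule sets the upper limit, the number of regions was also divided by the length of sequence that lies at each distance. In cattle, 67.4 regions per Mb had a gap over 200 and up to 300 bp, against 22.8 at up to 100 bp, 10.6 at 750 to 1000 bp and 5.46 at 2 to 3 kb. The corresponding densities in sheep were 71.3, 22.9, 11.6 and 5.61 regions per Mb. In goats they were 115, 25.4, 14.4 and 6.98 regions per Mb. All 3 species thus had their highest density at 200 to 300 bp and their lowest within 10 kb at 2 to 3 kb, and from 5 to 10 kb the density was higher again, at 7.66 to 13.7 regions per Mb. These values follow from the positions that chose the members and carry no test.

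**Figure D1:**
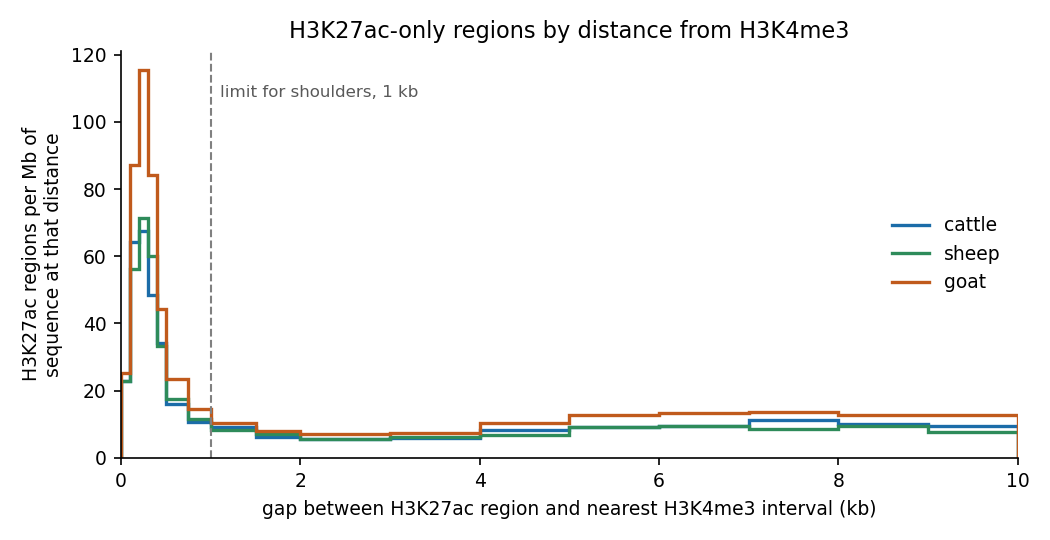
H3K27ac-only regions found in at least 2 libraries per Mb of autosomal sequence (vertical axis) at each distance in kb from the nearest H3K4me3 interval (horizontal axis), 1 stepped line per species, with the 1 kb limit dashed. The density is highest at 200 to 300 bp, with 67.4 regions per Mb in cattle, 71.3 in sheep and 115 in goats, and lowest at 2 to 3 kb.

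Nearly all shoulders had H3K4me3 on 1 side only. H3K4me3 lay within 1 kb on both sides of 26 shoulders in cattle (1.64%), 36 in sheep (1.90%) and 45 in goats (1.83%). Of the others, 50.4%, 49.2% and 50.4% had it at the lower coordinates, close to equal shares. The regions were short, with median widths of 557.5, 534 and 521.5 bp and a range from 239 to 2142 bp over the 3 species. Distal regions, which are recurrent H3K27ac regions with a gap over 5 and up to 100 kb, had medians of 599, 566 and 549 bp. Regions that overlapped H3K4me3 had medians of 883, 814 and 837 bp. Width is partly bounded by the rule, which removes a region once it reaches H3K4me3, and is given as a description.

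Just inside the limit, 51 cattle, 61 sheep and 70 goat shoulders had a gap over 900 bp, and just outside it 53, 59 and 53 regions had one of up to 100 bp more than the limit. Their peaks had median fold enrichments of 2.82, 2.82 and 2.74 inside and 2.51, 2.69 and 2.81 outside, and median pileups of 55, 39 and 41 fragments inside and 51, 41.5 and 39 outside. A further 1566, 1758 and 1645 regions met every condition except that only 1 library had them, with median pileups of 34, 27 and 29 fragments.

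Shoulders were strong in fragments but weak in fold enrichment. In the 8 H3K27ac libraries, the median pileup at the summit of shoulder peaks was 43 and 50 fragments in cattle B and C, 36, 35 and 37 in sheep A, B and C, and 35, 42 and 37 in goats A, B and C. Distal peaks had medians of 24 to 32 fragments, so all shoulder values lay above all distal values. The shoulders had 1.48 times as many fragments as distal peaks (log2 difference 0.56 ± 0.05, SD, n = 8, higher in 8 of 8 libraries). They had 0.803 times as many as peaks that overlapped H3K4me3, whose medians were 42 to 61 fragments.

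The local background differed more. It was 10.6 to 14.7 fragments at shoulders and 5.70 to 8.48 at distal peaks, or 1.84 times as high (log2 difference 0.88 ± 0.08, SD, n = 8, 8 of 8 libraries). The gap classes also set what the 10 kb window holds, with H3K4me3 around a shoulder and none around a distal summit. The part of this in the background was not tested. A higher background also asks for more fragments before a peak is called. Background, pileup and fold enrichment are therefore given as descriptions with no test wherever shoulders are compared with other gap classes or split by their flanks. In reads, a shoulder summit lay in a 10 kb window with a median of 442 to 598 reads, a distal summit in one with 242.5 to 342 and a remote summit, over 100 kb from H3K4me3, in one with 161 to 260. Peaks that overlapped H3K4me3 lay in windows of 341 to 413 reads, fewer than the shoulders' windows in every library. Only the windows of near regions, with gaps over 1 and up to 5 kb, held more, with 468 to 681 reads and more than the shoulders' in every library.

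Fold enrichment therefore gave the opposite order to the pileup. Its median at shoulder peaks was 2.78 and 3.17 in cattle B and C, 3.11, 3.03 and 3.09 in sheep A, B and C, and 3.03, 3.01 and 3.17 in goats A, B and C. At distal peaks the medians were 3.19 and 3.77 in cattle, 3.59, 3.51 and 3.57 in sheep, and 3.56, 3.57 and 3.71 in goats. All shoulder values lay below all distal values, with 3.17 and 3.19 as the nearest. The ratio was 0.857 (log2 difference −0.22 ± 0.02, SD, n = 8). By −log10 q the shoulders were higher, as by pileup, with a mean difference in medians of 0.688 (8 of 8 libraries). In sheep and goats, classes were also rebuilt without the H3K27ac list of an animal, and fold enrichment was read from that list. The difference was then −0.19 (n = 6). The pileup and background comparisons and the rebuilt classes were added after the fold enrichments had been seen.

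Against the regions next in distance, the near regions (1243 in number for cattle, 1380 for sheep and 1617 for goats), the differences were small. The medians of near peaks were 2.63 to 2.98 for fold enrichment, 35 to 51 fragments for pileup and 11.1 to 16.7 fragments for background. Shoulders had a higher fold enrichment in 8 of 8 libraries, by 0.074 ± 0.012 on the log2 scale (SD, n = 8). The windows of both classes can hold H3K4me3, those of near regions not always. The size depended on the limit, with 0.11 at 500 bp and 0.012 at 2 kb. Their background was lower in 8 of 8 libraries, by −0.10 ± 0.05. Pileup differed by −0.027 ± 0.027 on the log2 scale.

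Within the shoulders, the values changed with the gap. Averaged over the 8 library medians, pileup was 31.9 fragments at gaps up to 100 bp, 39.5 at 200 to 300 bp and 41.7 at 750 to 1000 bp. The mean background was 8.45, 11.9 and 14.5 fragments at the same gaps, and fold enrichment 3.37, 3.07 and 2.79. The shoulders next to H3K4me3 thus had the fewest fragments, the lowest background and the highest fold enrichment. At 9 to 10 kb the 3 means were 28.8 fragments, 7.29 fragments and 3.49. The plot of strength by distance shows each library.

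**Figure D2:**
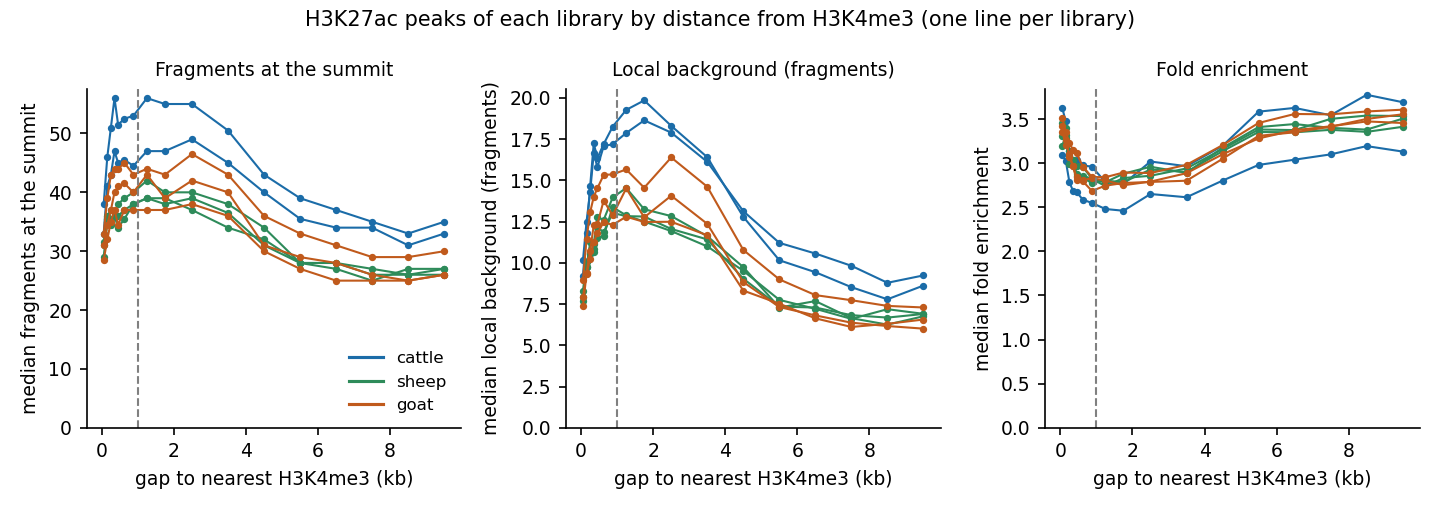
Median pileup at the summit in fragments, median local background in fragments and median fold enrichment (vertical axes, from left to right) of H3K27ac-only peaks against the gap to the nearest H3K4me3 interval in kb, 1 line per library, coloured by species, with the 1 kb limit dashed. Pileup and background fall beyond 3 to 4 kb, from means of 40.4 to 30.9 and from 13.2 to 8.45 fragments between 3 to 4 and 5 to 6 kb, while fold enrichment is lowest at 1 to 1.5 kb, with a mean of 2.75.

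The summits of shoulders leaned towards H3K4me3. In the 8 libraries, 55.3% to 61.7% of the shoulder peaks had their summit on the side of the midpoint that faced the nearest H3K4me3 (mean 59.0% ± 2.16, SD, n = 8). The share was 60.3% and 61.7% in cattle B and C, 58.0%, 57.3% and 58.2% in sheep A, B and C, and 55.3%, 60.8% and 60.4% in goats A, B and C. It was 49.5% to 53.8% for near peaks and 49.3% to 50.8% for distal peaks. Every shoulder value lay above every near and distal value. The rule fixes which edge of a shoulder is free to move, so these shares are a description with no test. Several summits were listed for 13.3% to 19.4% of the shoulder peaks, 12.2% to 21.3% of the distal peaks and 29.8% to 39.5% of the peaks that overlapped H3K4me3.

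Shoulders with H3K4me3 on both sides had more fragments and more background than those with 1 flank. Their median pileup was 38 to 74.5 fragments against 34 to 49 (log2 difference 0.29 ± 0.17, SD, n = 8, 8 of 8 libraries). The background was higher by 0.35 ± 0.15 on the log2 scale, again in 8 of 8 libraries. Fold enrichment was lower by −0.075 ± 0.061 in 8 of 8 libraries, with medians of 2.73 to 3.12 against 2.79 to 3.17. The second flank lies in the window of the background by the rule, so these values carry no test. In goat B the difference was only −0.0014. Only 25 to 43 peaks per library had 2 flanks, and with a limit of 500 bp the difference was −0.027 and with one of 2 kb −0.15.

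The H3K4me3 beside shoulders was weaker than other H3K4me3. After merging the intervals of all animals, 1603 of 28953 H3K4me3 regions in cattle (5.54%), 1896 of 33313 in sheep (5.69%) and 2439 of 30079 in goats (8.11%) lay within 1 kb of a shoulder. Of these, 28, 44 and 83 had shoulders on both sides. In the single libraries, the median fold enrichment of H3K4me3 peaks beside a shoulder was 5.24, 6.03 and 6.01 in cattle A, B and C, 5.74, 5.55 and 5.47 in sheep and 5.62, 5.68 and 5.48 in goats. Other H3K4me3 peaks had 6.60, 6.53 and 7.39 in cattle, 7.01, 6.91 and 6.84 in sheep and 7.18, 7.71 and 7.45 in goats. All values beside shoulders lay below all other values. The ratio was 0.799 (log2 difference −0.32 ± 0.10, SD, n = 9, 9 of 9 libraries, p = 0.00391, two-sided exact sign-flip permutation test, the smallest p that 512 arrangements allow). The pileup, at 23 to 42 fragments against 48 to 98, was 0.469 times as high. The rule acts on the edges of H3K4me3, which also set peak width. With widths limited to 600 to 1200 bp, the log2 difference in fold enrichment was −0.23. It was −0.22 with shoulders defined only by H3K4me3 found in at least 2 libraries. The part of the rule in the remaining difference was not tested.

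Peak width is made of the same H3K4me3 edges that set the gap and the absence of overlap, so it is described with no test. H3K4me3 peaks beside a shoulder had median widths of 621, 733.5 and 662 bp in cattle A, B and C, 607, 524 and 608 bp in sheep and 631, 511 and 541 bp in goats. Other H3K4me3 peaks had 783, 708 and 769 bp in cattle, 721, 708 and 778 bp in sheep and 805, 808 and 822 bp in goats. The medians beside shoulders were the lower in 8 of 9 libraries, and cattle B was the exception. The mean log2 difference was −0.35 ± 0.21 (SD, n = 9). It was −0.13 with shoulders defined only by H3K4me3 found in at least 2 libraries, −0.20 at a q of 1e-05 and −0.60 against other H3K4me3 that H3K27ac overlapped. The species means were −0.17 ± 0.20 for cattle, −0.35 ± 0.09 for sheep and −0.54 ± 0.16 for goats (SD over 3 libraries).

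Although weaker, the H3K4me3 beside shoulders was more often acetylated itself. Of the H3K4me3 peaks beside a shoulder, 83.6% and 88.6% were overlapped by H3K27ac from the same liver in cattle B and C, 81.8%, 71.5% and 77.9% in sheep A, B and C, and 84.9%, 85.8% and 86.3% in goats. Of the other H3K4me3 peaks, 72.5% and 71.1% were overlapped in cattle, 68.4%, 64.5% and 68.9% in sheep, and 78.1%, 75.5% and 72.8% in goats. The share was higher beside shoulders in each animal, by 11.1 ± 3.6 percentage points (SD, n = 8 animals). It carries no test, since the same H3K27ac lists placed a shoulder near these peaks, while the other H3K4me3 peaks include those with no H3K27ac nearby. With a limit of 2 kb the difference was 6.88 points. The ranges overlapped between species, as the other H3K4me3 of goats (72.8% to 78.1%) lay within the range beside sheep shoulders (71.5% to 81.8%). A shoulder itself never counts here, since it overlaps no H3K4me3.

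**Figure D3:**
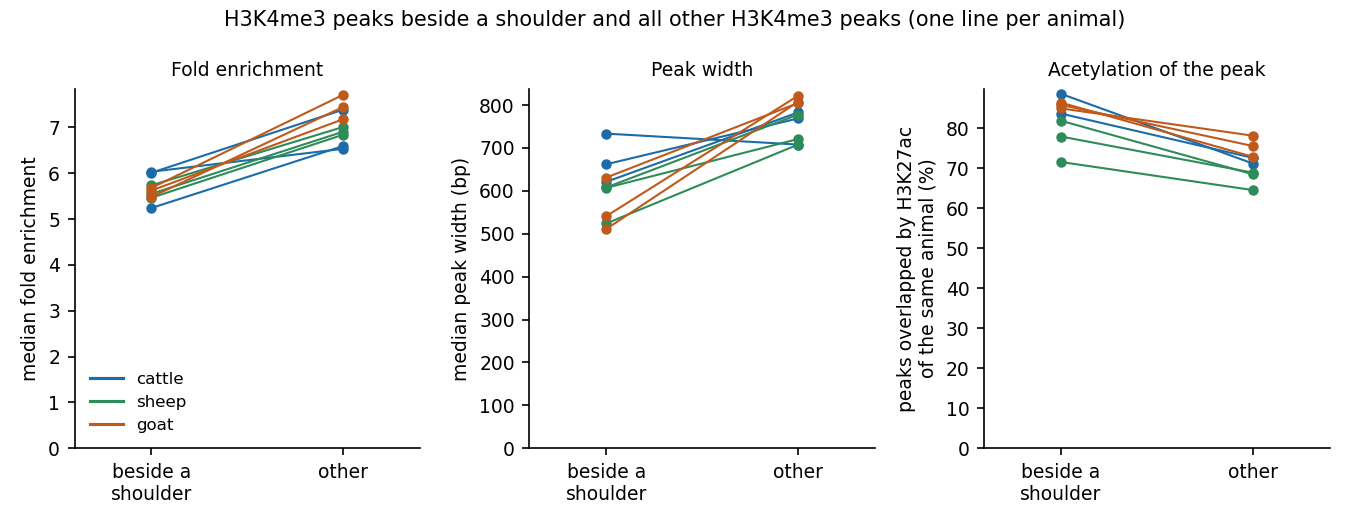
Median fold enrichment, median width in bp and percentage overlapped by H3K27ac of the same animal (vertical axes, from left to right) for H3K4me3 peaks within 1 kb of a shoulder and for all other H3K4me3 peaks, 1 line per animal, coloured by species (9, 9 and 8 animals). Fold enrichment is lower beside shoulders in 9 of 9 libraries, width in 8 of 9, and the acetylated share is higher in 8 of 8 animals.

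The H3K4me3 beside shoulders was also found in fewer animals, which is given as counts with no test. A merged H3K4me3 region came from a single library in 30.8%, 30.9% and 31.0% of cases beside shoulders in cattle, sheep and goats, against 19.4%, 19.7% and 16.8% of the other regions. It was found in all 3 animals in 56.2%, 51.2% and 48.3% of cases beside shoulders, against 68.7%, 68.3% and 71.6%. Seen from the shoulders, the nearest H3K4me3 region was in 1 library for 492 in cattle, 594 in sheep and 764 in goats, and in all 3 for 887, 958 and 1166.

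These shoulder sets are compared here by a split added after the data had been seen. The H3K4me3 region was 1044, 964.5 and 968.5 bp wide at the median where all 3 animals had it, and 282, 290.5 and 293.5 bp where 1 had it. It was overlapped by a recurrent H3K27ac region in 86.4%, 86.2% and 92.7% against 52.6%, 54.7% and 71.2% of cases. Shoulders beside H3K4me3 of all 3 animals had a median pileup of 38 to 54 fragments per library, against 30 to 41 beside H3K4me3 of 1 animal, a ratio of 1.23 (log2 difference 0.30 ± 0.05, SD, n = 8, 8 of 8 libraries). The background was 1.33 times as high, again in 8 of 8 libraries, and fold enrichment was lower by −0.097 ± 0.043 in 8 of 8. The wider flank lies in the window of the background, and these values carry no test. Their median gap was 272, 278.5 and 276.5 bp, against 326.5, 339.5 and 330.5 bp.

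Since the rule accepts H3K4me3 of any animal, the gap was also read within single animals. H3K4me3 of the same animal lay within 1 kb of 56.3% and 76.1% of the shoulder peaks in cattle B and C, 57.0%, 78.1% and 76.0% in sheep A, B and C, and 51.0%, 80.6% and 78.8% in goats A, B and C. Cattle B, sheep A and goat A were the lowest, and their H3K4me3 lists were the shortest of their species (23613, 26996 and 23483 autosomal peaks). The part of list length in these shares was not tested. The median gap to the animal's own H3K4me3 was 327 to 389 bp. For the 869, 937 and 1137 shoulders with 1 flank, found in all 3 animals, the H3K4me3 edge that faced the shoulder spanned a median of 68, 66 and 64 bp between animals, and the H3K27ac edge that faced H3K4me3 one of 52, 71 and 65 bp. The H3K27ac spans cover 2 animals in cattle and 2 or 3 in sheep and goats. These spans were smaller than the median gaps.

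Recurrence in a further animal was measured with regions rebuilt from the H3K27ac lists of the other 2 animals. Both had to have the region. The H3K4me3 lists of all animals, that of the held-out animal included, still set the gap classes. In the held-out animal, 79.1%, 73.6% and 81.5% of the shoulders were found in sheep A, B and C, and 74.0%, 89.3% and 82.6% in goats A, B and C. Distal regions were found in 75.7%, 67.6% and 78.6% of cases in sheep and 70.4%, 86.2% and 76.2% in goats. Shoulders were found more often in 6 of 6 animals, by 4.23 ± 1.52 percentage points (SD, n = 6), a difference smaller than that between animals. Each animal also served to build the regions for the other animals of its species, so the 6 values are not independent. To be found, a region must pass the q threshold in the held-out list, and shoulder peaks had the higher −log10 q. The comparison therefore carries no test. Among regions in the middle 50% of fold enrichment over all recurrent regions, the difference was 8.73 points. Pileup and background in this subset were not compared. With at least 50% of a region covered, the difference was 8.63 points. Cattle, with 2 H3K27ac libraries, gave no such value. Without the rebuilding, shoulders were found in all libraries in 52.8% of cases in sheep and 58.0% in goats. The shares were 49.9% and 50.9% for near regions, 48.3% and 52.8% for distal regions, and 82.8% and 86.5% for regions that overlapped H3K4me3.

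The absence of H3K4me3 was checked in the same way. When shoulders were defined with the H3K4me3 lists of 2 animals, the list of the animal left out overlapped 15.3%, 2.32% and 4.74% of them in cattle A, B and C. The shares were 3.65%, 7.64% and 8.83% in sheep and 1.96%, 8.64% and 10.2% in goats. For near regions they were 0.245% to 5.20%. The share was higher for shoulders in 9 of 9 animals, by 4.02 ± 2.79 percentage points (SD, n = 9). Shoulders lie nearer to H3K4me3 by definition, so this difference carries no test. The lists of cattle A, sheep C and goat C overlapped the most shoulders of their species, and the short lists of cattle B, sheep A and goat A the fewest.

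**Figure D4:**
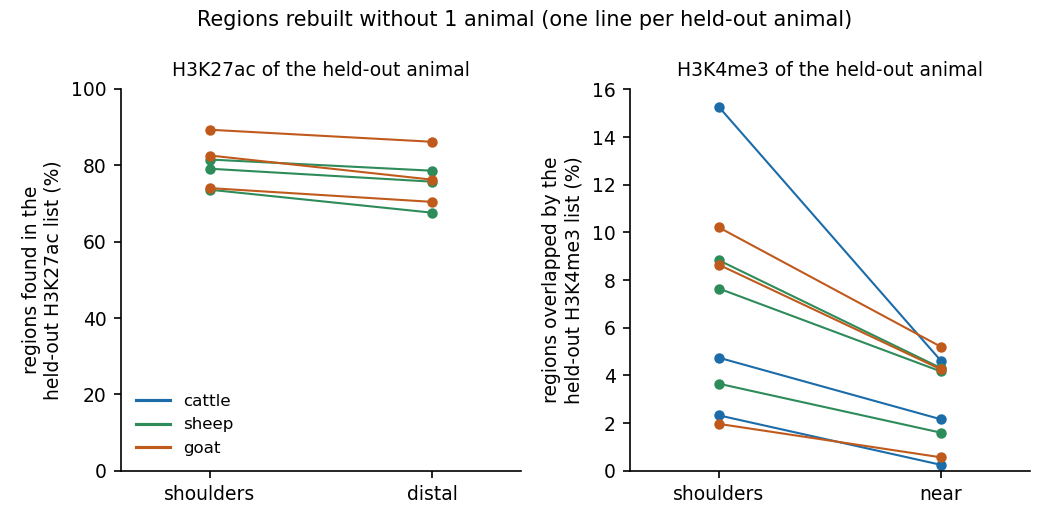
Percentage of regions that the H3K27ac list of a held-out animal also held (left, shoulders and distal regions) or that its H3K4me3 list overlapped (right, shoulders and near regions), 1 line per held-out animal, coloured by species. Regions were rebuilt without that list alone, and any list of the other mark was kept. Shoulders are found more often than distal regions in 6 of 6 animals, by 4.23 points on average, and are overlapped by H3K4me3 more often than near regions in 9 of 9, by 4.02 points.

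The fold enrichment of shoulders relative to distal peaks is given per species as a description with no test. For cattle the log2 difference in fold enrichment was −0.23 ± 0.04 (SD, n = 2), for sheep −0.21 ± 0.004 and for goats −0.23 ± 0.01 (SD, n = 3 each). The number of shoulders depended on the libraries that entered, since cattle had 2 H3K27ac lists. Goat B had the most H3K27ac peaks of all libraries (48735), and without it the goat number fell from 2454 to 1554. Requiring a region in all libraries left 1584 shoulders in cattle, 1000 in sheep and 1424 in goats.

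Most shoulders had H3K27ac neighbours. Another recurrent H3K27ac region, shoulder or not, lay within 2 kb of 78.3% of the shoulders in cattle, 79.0% in sheep and 87.8% in goats, against 32.7%, 29.5% and 40.5% of the distal regions. The median distance to the nearest one was 354, 380 and 325 bp for shoulders and 8596, 9285 and 6506 bp for distal regions. Distal regions have no H3K4me3 within 5 kb by definition, which limits the neighbours they can have, and this comparison carries no test. Per 100 merged H3K4me3 regions of an autosome there were 3.75 to 7.94 shoulders in cattle (29 autosomes), 3.61 to 7.66 in sheep (26) and 6.04 to 10.7 in goats (29). By this rate NC_037341.1 was the lowest in cattle, NC_040261.1 in sheep and NC_030816.1 in goats, and NC_037354.1, NC_040277.1 and NC_030817.1 were the highest. By number, an autosome held 27 to 92 shoulders in cattle, 28 to 203 in sheep and 47 to 138 in goats. No autosome lacked them.

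Single shoulders illustrate the range. Positions are 1-based, on the builds ARS-UCD1.2 (cattle), Oar_rambouillet_v1.0 (sheep) and ARS1 (goats), and what the annotation of these builds has there was not analysed. The strongest cattle shoulder, ranked by −log10 q in its poorer library, was NC_037340.1:44596010-44596938, 929 bp wide and 365 bp from H3K4me3 at higher coordinates. It had 163 fragments over a background of 35.1 in cattle B and 236 over 45.8 in cattle C, so that fold enrichment was 4.54 and 5.07. The next, NC_037346.1:35881969-35882757, lay between 2 H3K4me3 intervals, with gaps of 176 and 292 bp, and had 106 and 157 fragments. NC_037345.1:48382448-48383034, 136 bp from H3K4me3, had only 67 and 79 fragments but a background of 8.43 and 8.60, which gave a fold enrichment of 7.21 and 8.33. The widest cattle shoulder, NC_037342.1:56492597-56494738, spanned 2142 bp with 74 and 100 fragments. A second shoulder with 2 flanks, NC_037338.1:104886487-104886821, was 335 bp wide with gaps of 190 and 174 bp and had 69 and 80 fragments.

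The strongest sheep shoulder, NC_040263.1:5644571-5645965, was 1395 bp wide and 353 bp from H3K4me3, with 99, 87 and 108 fragments in sheep A, B and C. NC_040252.1:261617446-261618339, at a gap of 75 bp, had 79, 65 and 82, and NC_040253.1:143499807-143500353, at 186 bp, had 80, 72 and 79. Sheep B had the fewest fragments at each of them. Between H3K4me3 on both sides, NC_040253.1:249036987-249037812 had more fragments than any of these, 123, 114 and 124, over backgrounds of 39.7, 39.9 and 42.4, so that its fold enrichment was only 3.05, 2.81 and 2.88. NC_040254.1:26935151-26936021, also between 2 flanks, had 58, 43 and 44 fragments. The widest, NC_040261.1:78266530-78268510, spanned 1981 bp with only 31, 30 and 29 fragments.

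In goats, NC_030824.1:69144063-69144969, 164 bp from H3K4me3, had 91, 116 and 109 fragments in goats A, B and C and a fold enrichment of 5.92, 5.72 and 7.06. NC_030832.1:3666325-3667403 had more fragments, 121, 149 and 147, over a higher background of 35.3, 42.2 and 40.7, and a fold enrichment of 3.36, 3.47 and 3.55. NC_030819.1:15001864-15002930 had 69, 94 and 115. The first of these thus had fewer fragments than the second and the higher fold enrichment in all 3 goats. The shoulders NC_030836.1:50554872-50555268 and NC_030817.1:38050049-38051123 lay between H3K4me3 on both sides and had 97, 130 and 133 and 63, 97 and 95 fragments. The widest, NC_030817.1:88382218-88383936, spanned 1719 bp with 45, 59 and 35.

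Shoulders on both sides of 1 H3K4me3 region were named once per species. In cattle, the H3K4me3 region NC_037346.1:25021615-25022764, 1150 bp wide and found in all 3 animals, had a shoulder of 1178 bp at a gap of 372 bp and one of 453 bp at 123 bp on the other side. The wider had 76 and 119 fragments in cattle B and C, and the other 62 and 90. In sheep, a 285 bp region of 2 animals, NC_040254.1:63707584-63707868, lay between shoulders with gaps of 278 and 260 bp, which had 47, 46 and 49 and 43, 42 and 62 fragments. In goats, a 332 bp region of 1 animal, NC_030836.1:499242-499573, lay between shoulders with gaps of 364 and 348 bp, which had 51, 83 and 45 and 45, 93 and 50 fragments. In sheep and goats neither member of the pair had more fragments in every animal.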

How the data were processed

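Liver ChIP-seq for H3K27ac and H3K4me3 was analysed from 17 deposited peak lists of 9 animals. According to the methods, reads were trimmed with Trim Galore, aligned with BWA, freed of duplicates with Picard, subsampled to 1 depth and used to call narrow peaks with MACS2 at a q of 0.01, per library. The submitters' processing notes name MACS2 2.1.1 and BWA 0.7.17. The 9 input samples have no list here. The fold enrichment (a ratio to background) and the −log10 p-value and −log10 q-value were computed by the authors and deposited with each summit, beside a whole-number score that the authors' caller derives from the q-value and that was not used. Rows that share an interval were joined and given the fold enrichment and p-value of the summit with the highest fold enrichment. The −log10 q was the highest of any summit of the interval.

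The pileup n and background λ were solved from fold = (n + 1)/(λ + 1) and the Poisson p-value, a step tested on simulated peaks. Backgrounds in steps of a 10 kb window with no sign of the 1 kb window (9.28% to 10.3% of values were multiples of its step, as 1 in 10 whole numbers are) are how MACS2 works without a control library, so the background was taken to count ChIP reads. Reads per library are not given in a list, and precision rests on the number of animals. P-values measure the spread between these animals.

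Classes by gap were compared within each library by the difference in median log2 value (percentage points for shares), tested over libraries by flipping signs in all arrangements, two-sided, with 0.05 as the threshold. Of 8 planned comparisons of this kind, 6 are reported without a p, because the rule bears on their measures: fold enrichment against distal and near peaks and by number of flanks, H3K4me3 width, own acetylation and held-out H3K4me3 overlap. The same holds for the planned tests between species, of H3K4me3 width and of fold enrichment against distal peaks. This was decided after seeing the data. Recurrence in the held-out animal is likewise reported without a p, because its values share animals. For the sign-flip test of flanking H3K4me3 fold enrichment, the Benjamini-Hochberg adjusted p-value over all 8 planned comparisons was 0.00893. The sign test was tested on simulated data. Overlaps matched bedtools 2.31.1 in 32 comparisons with 0 differences. Python 3.11.15, numpy 2.4.6, pandas 2.3.3, scipy 1.17.1 and matplotlib 3.10.9 were used.

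Marks were paired by the animal letter in the sample titles, which names the same liver within a species. Named regions were taken, per species, among shoulders present in all H3K27ac libraries: the 3 whose poorest rank by −log10 q was best, the widest, the 2 best with H3K4me3 on both sides, and the best pair around 1 H3K4me3 region. The rule for shoulders, the comparisons and the named-region rule were chosen with earlier results of these data known. Sequences and genes at the regions were not analysed here, because no genome or annotation of the 3 builds was used.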

Additional observations from a re-analysis of the deposited data

How the results depend on the processing

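The 8 comparisons within libraries were recomputed with gap limits of 500 bp and 2 kb, a q of 1e-05, H3K4me3 found in at least 2 libraries and without each animal in turn, and some of them with limited peak widths, −log10 q or other overlap rules; the differences between species were not recomputed; pileup, background and the fold enrichment read in a held-out library were added after seeing the data. Fold enrichment against distal peaks kept its direction in 14 of 17 alternatives, and the measures that reversed were −log10 q (0.688), pileup (0.562) and background (0.883). Against near peaks, 15 of 17 kept their direction, and pileup (−0.0271) and background (−0.104) reversed. By number of flanks, −log10 q (0.934), pileup (0.294) and background (0.348) reversed, and at 500 bp the value was −0.0269. Pileup, background and fold enrichment are linked by the definition of fold enrichment, and the cause of the other changes was not tested. Flanking H3K4me3 fold enrichment kept direction and threshold in 17 of 17, its width, described with no test, was −0.129 with H3K4me3 of at least 2 libraries, and own acetylation kept its direction in 15 of 15. Held-out H3K4me3 overlap kept its direction in 13 of 13. With the animals as a replicate block the acetylation difference was 11.1 points, and 10.7 without the pairing. Held-out recurrence was 3.82 to 4.50 points without 1 animal. A q of 1e-05 left 871, 991 and 1421 shoulders in cattle, sheep and goats, presence in all libraries 1000 in sheep and 1424 in goats, and leaving out a goat 1554 to 2041. Cattle could not be rebuilt without an H3K27ac library, since 1 would be left. Depth limits weak peaks: 99.99% or more of the pileups were recovered, but a region under the q threshold in an animal is not listed, so absence from a list is not absence of the mark.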
